A study of Mus musculus with 8 samples.

Results

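The RNA levels of 10 genes for the movement and anchoring of mitochondria were compared between ribosome-bound and whole-tissue RNA of the mouse arcuate nucleus. The genes were chosen by name as those for the Miro GTPases (Rhot1, Rhot2), the TRAK adaptors (Trak1, Trak2), the heavy chains of kinesin-1 (Kif5a, Kif5b, Kif5c), the anchor syntaphilin (Snph) and a pair of armadillo-repeat proteins of the mitochondrial surface (Armcx1, Armcx3). Earlier results of these data were known when the genes were chosen. All 10 were found among the 45706 genes of the count table, each on 1 line. All 10 passed the filter on low counts that left 17000 genes to test. The tested libraries were 4 immunoprecipitates (IP) made by translating ribosome affinity purification (TRAP), in which GFP-tagged ribosomes are captured from a homogenate with anti-GFP antibodies. They were set against 4 input libraries, made from RNA of the homogenate. Every library, IP and input alike, came from 3 pooled mice of mixed genders, 11 to 12 weeks old and random-fed, carrying Mfffl/fl together with AgRP-IRES-Cretg/wt and with RpL10a-GFPfl/wt. Cre made from the Agrp locus removed floxed Mff, the gene of mitochondrial fission factor, and switched on the RpL10a-GFP tag in the same cells. The mice of both groups therefore carry the deletion in the tagged cells, which IP captures, while input also holds RNA of cells without it. Control-genotype libraries were not analysed here, so the values below compare fractions of knockout tissue and not knockout with control.

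In neurons, mitochondria are carried along microtubules over long distances. Miro proteins sit in the outer mitochondrial membrane, bind calcium, and hold TRAK adaptors, which in turn recruit kinesin-1 for movement towards axon ends and dynein for movement back to the cell body. Syntaphilin stops axonal mitochondria by tying them to microtubules, and Armcx proteins bind Miro and TRAK proteins and alter the number of moving mitochondria, as described in mouse neurons. AgRP neurons are hunger-promoting cells of the arcuate nucleus whose axons reach many other brain regions.

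The libraries held 39.9 M to 64.8 M estimated counts in IP and 44.1 M to 74.6 M in input, and the members had between 1228 and 61059 estimated counts per library. Levels are counts-per-million (CPM) values with TMM scaling of the libraries. Agrp, which marks the tagged cells, had 683 to 1083 CPM in IP and 2.64 to 4.38 CPM in input, a log2 fold change of 7.98 ± 0.20 (SE). Mff had 64.0 to 71.2 CPM in IP and 112.2 to 132 CPM in input, a log2 fold change of -0.86 ± 0.07. This does not check the deletion, since reads can come from exons outside the deleted part and from other cells. The marker lists were chosen with earlier results of these data known, so their counts are a description. Of all tested genes, 24.5% were called higher and 20.9% lower in IP. All 9 listed AgRP neuron markers were higher in IP. All 8 astrocyte markers were lower in IP, with summed levels of 789 to 1077 CPM in IP and 2634 to 3282 CPM in input, as were all 8 oligodendrocyte markers, with 606 to 884 CPM in IP and 2111 to 2663 CPM in input. All 3 oligodendrocyte precursor markers were lower, as were 7 of 8 for microglia and 6 of 8 for other arcuate neurons. Tanycyte and ependymal markers had 4 of 6 lower, and endothelial and mural markers 3 of 6. The rest of these lists was not called. No listed marker of another cell type was at 0 in all IP libraries. Of 18 pan-neuronal markers 4 were higher and 11 lower in IP, with a median log2 fold change of -0.52. Their summed level was 6097 to 6594 CPM in IP and 9288 to 9999 CPM in input. IP replicate 3 stood furthest from the other IP libraries, with a chi-square per degree of freedom of 222.5 to 329.1 in its pairs, against 47.1 to 60.2 in the other IP pairs. Without it 5 of the 10 members were called lower, namely Kif5a, Kif5b, Kif5c, Trak2 and Snph. Rhot2 was then called higher.

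All 3 kinesin-1 heavy chains, Trak2 and Snph fell in IP, with log2 fold changes between -0.78 and -0.33. No member was called higher, and 5 (Rhot1, Rhot2, Trak1, Armcx1, Armcx3) did not pass edgeR's quasi-likelihood test at a Benjamini-Hochberg adjusted p of 0.05. Of all 17000 tested genes, 20.9% were called lower and 24.5% higher. The median log2 fold change was -0.26 over the 10 members, -0.01 over all tested genes and -0.52 over the 18 pan-neuronal markers. The IP libraries lay entirely below the input libraries for the 5 genes called lower, and this held for 24.0% of all tested genes. For Rhot2 the IP libraries lay entirely above the input libraries, which held for 24.1% of all tested genes, and for 4 members the groups overlapped. In bulk RNA, fewer cells of a type and less RNA per cell cannot be told apart. IP and input also differ at once in cell type, in the share of cells with the Mff deletion and in ribosome binding. These cannot be told apart either. The part that glial and other neuronal RNA in input plays in the lower values was not tested.

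**Figure D1:**
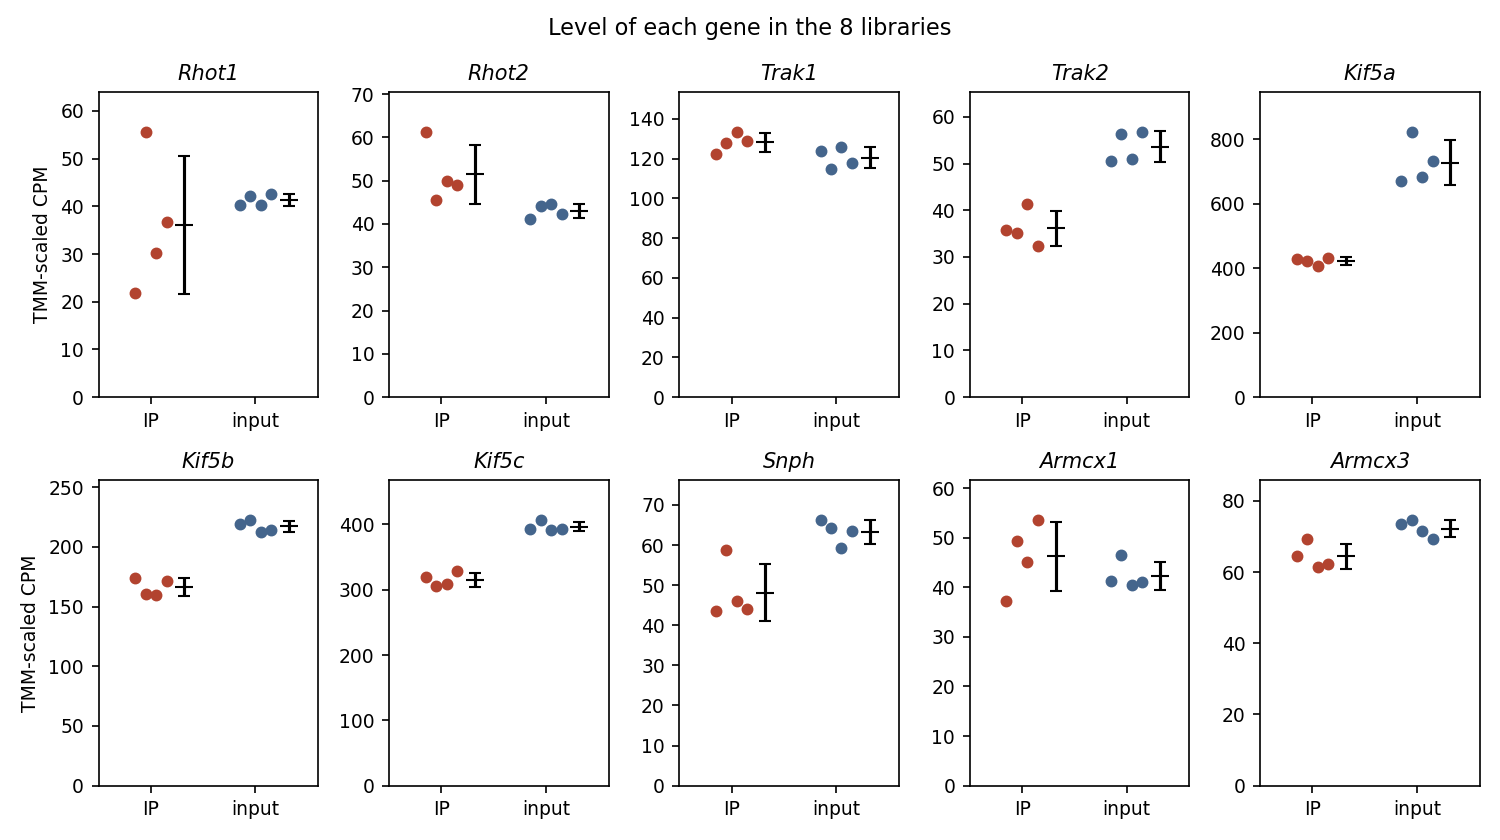
Level in CPM (linear axes starting at 0) of the 10 genes in 4 IP libraries (left in each panel) and 4 input libraries (right), with 1 point per library and a line at the mean with its SD. The IP points lie below all input points for Kif5a, Kif5b, Kif5c, Trak2 and Snph, above them for Rhot2, and overlap them for the other four genes; the Rhot1 points in IP run between 21.7 and 55.6 CPM.

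Promoter windows of members that fell in IP together are shown so that their letters can be compared. RefSeq's table for GRCm38.p6 (250 bases before to 50 after a gene's start) held 10 windows of 7 members, and those of Kif5c, Snph and Trak2 are printed. Both strands were searched for the NRF1 motif, which no window of a member held and which 0.971% of the table's windows hold, and for 4 others, whose matches stand in capitals in either orientation: the cyclic AMP response element (CRE), spelled TGACGTCA; the GC box, spelled GGGCGG; the motif spelled CCAAT; and the TATA box, spelled TATAAA. No match overlapped another in the printed windows. Of 32851 windows in the table, 1.79% hold the CRE, 35.7% the GC box, 37.4% the CCAAT motif and 13.6% the TATA box.
Kif5c, chr2:49619036-49619335, plus strand: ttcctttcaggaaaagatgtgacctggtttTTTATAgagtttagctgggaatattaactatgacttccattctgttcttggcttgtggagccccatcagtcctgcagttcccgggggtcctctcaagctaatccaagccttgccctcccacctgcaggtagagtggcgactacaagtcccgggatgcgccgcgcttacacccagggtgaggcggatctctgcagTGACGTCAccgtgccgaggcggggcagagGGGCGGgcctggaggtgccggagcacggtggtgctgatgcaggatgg
Snph, chr2:151632544-151632843, minus strand: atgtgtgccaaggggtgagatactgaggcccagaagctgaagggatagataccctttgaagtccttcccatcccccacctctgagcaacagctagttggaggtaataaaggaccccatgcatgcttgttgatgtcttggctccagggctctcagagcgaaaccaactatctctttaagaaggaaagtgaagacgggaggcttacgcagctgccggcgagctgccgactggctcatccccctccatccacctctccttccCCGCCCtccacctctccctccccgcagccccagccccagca
Trak2, chr1:58973433-58973732, minus strand: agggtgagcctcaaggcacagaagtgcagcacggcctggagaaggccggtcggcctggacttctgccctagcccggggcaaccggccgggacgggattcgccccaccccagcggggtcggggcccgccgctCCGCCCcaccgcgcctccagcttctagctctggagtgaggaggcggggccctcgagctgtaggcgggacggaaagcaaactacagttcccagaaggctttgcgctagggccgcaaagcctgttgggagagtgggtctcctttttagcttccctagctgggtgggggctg
The Kif5c window held 1 CRE, 1 GC box and 1 TATA box, which reads in the reverse orientation. The Snph and Trak2 windows held 1 GC box each. Among members that were not called, some windows held the GC box or the CRE, and none held the TATA box. The windows of Rhot2 and of Armcx1 held 1 CCAAT motif each, which no printed window held. The windows of Rhot1 and of Rhot2 held 2 GC boxes each, and of the 4 windows of Trak1 one held 5 GC boxes, another 1 GC box and another 1 CRE. A match is a description of letters and not a binding site.

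The kinesin-1 heavy chains are the motors that pull mitochondria outwards. Kif5a (ENSMUSG00000074657, chr10:127225696-127263348, minus strand, GRCm38) encodes a heavy chain made in neurons. It had 430.0, 421, 407 and 432 CPM in the IP libraries, against 670.0, 823, 682 and 734 CPM in the input libraries. Every IP value lay far below the lowest input value, and the IP libraries were the closer to each other. Its mean level in IP was 423 ± 11.2 CPM and in input 727 ± 69.8 CPM (SD, n = 4 each). The log2 fold change was -0.78 ± 0.07 (SE; 95% interval -0.94 to -0.62; edgeR adjusted p = 5.5e-06), so that IP lay 41.9% lower. Kif5a was the only member called lower under every one of the 19 alternative settings, with log2 fold changes between -0.92 and -0.47.

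Kif5c (ENSMUSG00000026764, chr2:49619298-49774778, plus strand), a heavy chain enriched in neurons, had 319.5, 305, 308 and 329 CPM in IP and 393, 406, 392 and 394 CPM in input. The groups were separated by a gap larger than the spread of either. Its log2 fold change was -0.33 ± 0.05 (95% interval -0.45 to -0.21; edgeR adjusted p = 0.000436).

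Kif5b (ENSMUSG00000006740), the heavy chain that most cell types make, had 174, 161, 159.7 and 171 CPM in IP and 219, 222, 213 and 215 CPM in input. Again no IP library reached the lowest input library. Its call as lower, at a log2 fold change of -0.38 ± 0.06 (95% interval -0.51 to -0.26; edgeR adjusted p = 0.000249), ended once GC content and transcript length were modelled, which gave -0.13 with an adjusted p of 0.153. Of its 31-base words, 5.66% also occur in other genes, an antisense gene among them, and no strand setting is given in the sources used here.

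The TRAK adaptors link Miro to the motors. Trak2 (ENSMUSG00000026028, chr1:58900449-58973430, minus strand), which in cultured rodent neurons works mainly with dynein, had 35.7, 35.2, 41.2 and 32.4 CPM in IP and 50.5, 56.3, 50.9 and 56.8 CPM in input. The highest IP library stayed below the lowest input library. Trak2 averaged 36.1 ± 3.71 CPM in IP and 53.6 ± 3.40 CPM in input, a log2 fold change of -0.57 ± 0.09 (95% interval -0.78 to -0.36; edgeR adjusted p = 0.000476). Trak1 (ENSMUSG00000032536, chr9:121297502-121474918, plus strand), which binds both kinesin-1 and dynein, had 122.3, 127.9, 133.5 and 129.0 CPM in IP and 123.7, 114.6, 126.0 and 117.8 CPM in input. These groups overlapped, with the lowest IP library under the 2 highest input libraries. Between the fractions Trak1 differed by a log2 fold change of 0.09 ± 0.06 (95% interval -0.05 to 0.23; edgeR adjusted p = 0.273). It was 0.19 with an adjusted p of 0.0401 when libraries were scaled by their totals alone, and -0.05 with upper quartile factors.

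The Miro genes did not pass the test in either direction. Rhot1 (ENSMUSG00000017686, chr11:80209019-80267907, plus strand), the gene for Miro1, had 21.7, 55.6, 30.3 and 36.7 CPM in IP and 40.3, 42.2, 40.2 and 42.5 CPM in input. The input libraries agreed closely, with a coefficient of variation of 2.98%, whereas that of the IP libraries was 39.9%: IP replicate 2 lay above every input library and the other three IP libraries below. For Rhot1 the log2 fold change was -0.20 ± 0.22 (95% interval -0.69 to 0.29; edgeR adjusted p = 0.505). Single libraries moved it, to -0.48 (adjusted p = 0.0296) without IP replicate 2 and to -0.01 (adjusted p = 0.957) without IP replicate 1.

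Rhot2 (ENSMUSG00000025733, chr17:25838457-25844851, minus strand), the gene for Miro2, was the one member whose IP libraries all exceeded the input libraries. It had 61.3, 45.5, 50.0 and 49.0 CPM in IP and 41.2, 44.1, 44.5 and 42.2 CPM in input. The gap between the nearest libraries was small and IP replicate 1 stood highest. The log2 fold change was 0.26 ± 0.10 (95% interval 0.04 to 0.48), and the edgeR adjusted p of 0.0525 missed the threshold. The adjusted p was 0.0138 with library totals alone, 0.0245 without IP replicate 2 and 0.0495 without IP replicate 3. Without IP replicate 1 the log2 fold change shrank to 0.17 (adjusted p = 0.11), and with upper quartile factors to 0.12 (adjusted p = 0.33). Of the 31-base words of Rhot2 transcripts, 42.7% are shared with other genes, among them a readthrough gene (Gm20683) on the same strand, so its counts are uncertain. Adding the counts of that gene gave a log2 fold change of 0.27 with an adjusted p of 0.0461.

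Syntaphilin holds axonal mitochondria in place. Snph (ENSMUSG00000027457, chr2:151590549-151632593, minus strand) had 43.6, 58.8, 46.1 and 44.1 CPM in IP and 66.2, 64.3, 59.1 and 63.5 CPM in input. IP replicate 2 came close to the lowest input library, while the other three IP libraries lay well below all input libraries. Its log2 fold change was -0.39 ± 0.10 (95% interval -0.62 to -0.17; edgeR adjusted p = 0.00888). With library totals alone the value was -0.29 and the adjusted p 0.0523.

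The Armcx genes lie on the X chromosome, near each other. Armcx1 (ENSMUSG00000033460, chrX:134717963-134721917, plus strand), whose protein raises mitochondrial transport in mouse retinal neurons, had 37.2, 49.3, 45.01 and 53.5 CPM in IP and 41.2, 46.6, 40.4 and 41.0 CPM in input. Armcx3 (ENSMUSG00000049047, chrX:134756595-134761455, plus strand), whose protein binds Miro and Trak2 in mouse cells, had 64.5, 69.4, 61.4 and 62.3 CPM in IP and 73.4, 74.5, 71.6 and 69.3 CPM in input. Both pairs of groups overlapped, Armcx3 by a single pair of libraries. The log2 fold change was 0.13 ± 0.11 for Armcx1 (95% interval -0.12 to 0.38; edgeR adjusted p = 0.386). For Armcx3 it was -0.17 ± 0.07 (95% interval -0.32 to -0.01; edgeR adjusted p = 0.0756). Armcx3 was called lower with RLE factors (-0.20, adjusted p = 0.035), with upper quartile factors (-0.30, 0.00519), with DESeq2 (-0.20, 0.0128), with a filter at 1 CPM in 4 libraries (-0.19, 0.0431) and without IP replicate 2 (-0.20, 0.0388). Of its 31-base words, 31.2% are shared with other genes.

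**Figure D2:**
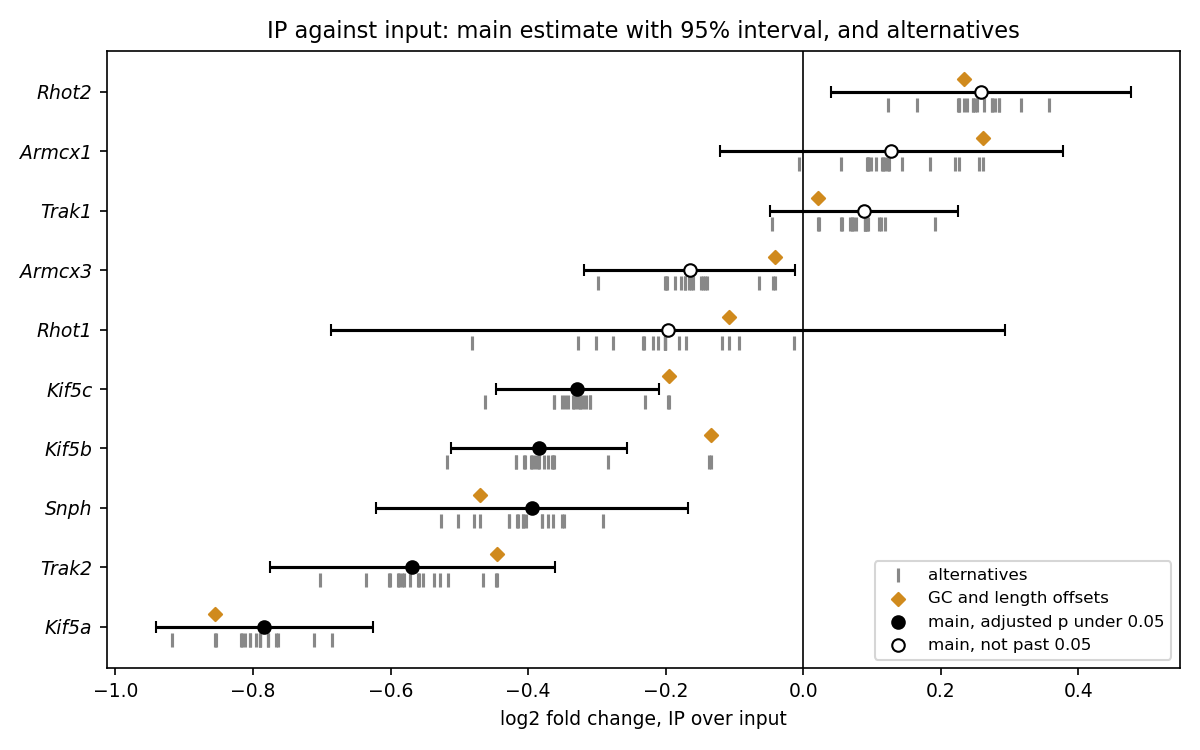
Log2 fold change of IP over input (horizontal axis) for the 10 genes, as points with 95% intervals from edgeR; the grey ticks are the same value under the other settings, apart from the GC and length offsets that were not centred. Kif5a at -0.78 and Trak2 at -0.57 lie farthest below 0, and the interval of Rhot1 runs between -0.69 and 0.29.

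Transcript length and GC content moved with the difference between IP and input over all genes. Across 16901 tested genes, Spearman's rho of the log2 fold change was -0.24 with transcript length and 0.15 with GC content, as a description. The median log2 fold change was 0.60 in the shortest decile of genes and -0.31 in the longest decile. Of the 10 members 9 were longer than the median of 2.99 kb. With both properties modelled and the overall level of each library kept, Kif5a, Kif5c, Trak2 and Snph were still called lower, and Kif5c moved to -0.19 (edgeR adjusted p = 0.016). Where the overall level was left free, which moved the median of all tested genes to 0.39, Kif5b was at 0.25, Kif5c at 0.19, Trak2 at -0.05 and Snph at -0.09, and of the 5 only Kif5a was called lower.

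Paralogues compared inside a library are free of scaling between libraries. Trak1 had 3.24 to 3.98 estimated counts per count of Trak2 in IP, and 2.03 to 2.47 in input. The log2 ratio averaged 1.83 ± 0.13 in IP and 1.17 ± 0.15 in input (SD, n = 4 each), a difference of 0.66. Kif5a had 1.31 to 1.38 counts per count of Kif5c in IP and 1.71 to 2.03 in input, a log2 difference of -0.45. Against Kif5b, Kif5a had 2.47 to 2.62 counts per count in IP and 3.05 to 3.70 in input, a log2 difference of -0.39. For these 3 ratios every IP library lay on one side of every input library. The 2-sided exact permutation p was 0.0286 for each, the smallest that 70 arrangements of 4 against 4 can give, and 0.0571 after Benjamini-Hochberg adjustment over the 6 ratios computed, so none passed 0.05. The log2 difference was 0.06 for Kif5c over Kif5b and 0.29 for Armcx1 over Armcx3 (exact permutation p = 0.0857 and adjusted p = 0.103 for both), and -0.53 for Rhot1 over Rhot2 (0.229 for both). With GC and length offsets the difference of Kif5a over Kif5b became -0.72, and that of Kif5c over Kif5b turned to -0.06. In edgeR with these offsets the log2 fold change was 0.02 for Trak1 and -0.44 for Trak2, against 0.09 and -0.57 in the main fit.

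**Figure D3:**
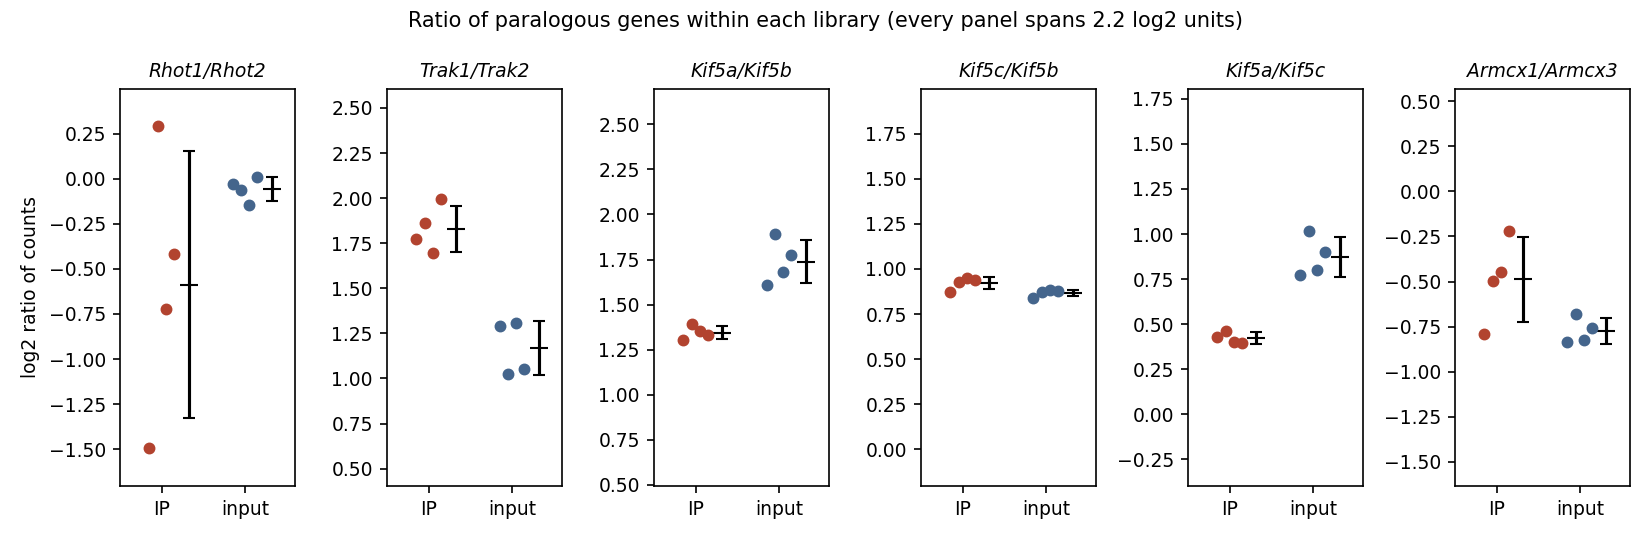
Log2 ratio of estimated counts (vertical axis) of 6 pairs of paralogues in each of 4 IP libraries (left) and 4 input libraries (right), with lines at the means and their SD. IP lies wholly above input for Trak1 over Trak2 and wholly below it for Kif5a over Kif5b and Kif5a over Kif5c.

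Set per length of the longest protein-coding transcript, the members differed several-fold in level. In IP, Kif5a came first with 67.1 ± 1.78 CPM per kb, then Kif5c with 46.0 ± 1.59, Kif5b with 27.6 ± 1.23 and Trak1 with 23.9 ± 0.863 (SD, n = 4). In input the same 4 genes led in the same order, with 115.5 ± 11.1, 57.8 ± 0.987, 36.0 ± 0.730 and 22.5 ± 0.974 CPM per kb. The motors thus stood above adaptors, Miro genes and anchor in both fractions. Lower down in IP came Armcx1 at 19.2 ± 2.87, Armcx3 at 18.5 ± 1.03, Rhot2 at 16.1 ± 2.14, Snph at 9.80 ± 1.46, Rhot1 at 8.47 ± 3.38 and Trak2 at 5.84 ± 0.599 CPM per kb. Among neighbours in that order, Armcx1 and Armcx3, Armcx3 and Rhot2, Snph and Rhot1, and Rhot1 and Trak2 overlapped between libraries. In input the order ran Armcx3 at 20.7 ± 0.658, Armcx1 at 17.5 ± 1.19, Rhot2 at 13.5 ± 0.494, Snph at 12.9 ± 0.605, Rhot1 at 9.70 ± 0.289 and Trak2 at 8.67 ± 0.549 CPM per kb, and of all neighbours in input only Rhot2 and Snph overlapped. As shares of the kinesin-1 heavy chains per length, Kif5a made up 47.7% ± 0.513 in IP and 55.1% ± 1.97 in input. Kif5c made up 32.7% ± 0.428 in IP and 27.7% ± 1.16 in input, and Kif5b 19.6% ± 0.348 in IP and 17.2% ± 0.826 in input. Trak1 made up 80.4% ± 1.39 of the TRAK pair in IP and 72.2% ± 2.11 in input.

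A wider list of 66 genes around the same machinery was examined, of which 65 were tested and Mgarp was not. Of the 65, 22 were higher in IP, 17 lower and 26 not called, with a median log2 fold change of 0.03; of all tested genes 24.5% were higher and 20.9% lower. Of the 4 light chains, which couple kinesin-1 to cargo, 1 was higher and none lower. Klc1 was the higher one, with 311 ± 10.8 CPM in IP and 260.4 ± 3.80 CPM in input (SD, n = 4 each; log2 fold change 0.25 ± 0.05, edgeR adjusted p = 0.00263), a call that upper quartile factors ended (0.12, adjusted p = 0.0949). Klc2 was at 0.02 ± 0.10 (adjusted p = 0.862). Of 5 other kinesins and linkers 3 fell and 1 rose. Kif1c fell by 1.31 ± 0.09 and Kif1b, a motor of mitochondria and synaptic vesicles, by 0.38 ± 0.07 on the log2 scale (edgeR adjusted p = 7.95e-07 and 0.00102). Kif21b rose, with 97.0 ± 8.50 CPM in IP and 45.5 ± 1.37 CPM in input (log2 fold change 1.09 ± 0.08, adjusted p = 8.89e-07).

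Dynein and dynactin, the motor for the return journey, had 11 of 22 tested genes higher in IP, 4 lower and 7 not called, with a median log2 fold change of 0.27, beside 24.5% higher and 20.9% lower among all tested genes. The dynein light chain genes Dynlrb1 and Dynlt1b rose by 0.97 ± 0.07 and 0.98 ± 0.10 on the log2 scale (edgeR adjusted p = 5.38e-07 and 1.2e-05). Both have short transcripts, and with GC and length offsets their values were 0.37 and 0.47. Dync1li2, a light intermediate chain, fell by 0.73 ± 0.06 (adjusted p = 3.87e-06). Nde1, a dynein regulator, fell by 1.82 ± 0.32 (adjusted p = 0.000685). Of 6 other armadillo-repeat genes 4 rose and none fell, Armc10 by 0.62 ± 0.15 and Armcx4 by 0.39 ± 0.08 (edgeR adjusted p = 0.0046 and 0.00275).

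Of 16 tested adaptors and regulators 5 rose, 3 fell and 8 were not called, beside 24.5% higher and 20.9% lower among all tested genes. Hap1, a huntingtin partner that binds kinesin-1 and dynactin, had 313 ± 11.5 CPM in IP and 169 ± 15.3 CPM in input (log2 fold change 0.89 ± 0.07, edgeR adjusted p = 2.46e-06). Fez1, a kinesin-1 adaptor, had 32.5 ± 4.15 CPM in IP and 71.1 ± 5.23 CPM in input (log2 fold change -1.13 ± 0.10, adjusted p = 5.5e-06). Ogt, the sugar transferase that modifies TRAK proteins, fell by 0.89 ± 0.11 (adjusted p = 4.25e-05). Of the metaxins, Mtx1 was at 0.41 ± 0.15 (adjusted p = 0.0381), a call lost in 12 of the alternatives, and Mtx2 at 0.24 ± 0.09 (adjusted p = 0.0502). Mtx3, named after its values were seen, rose, with 234 ± 13.6 CPM in IP and 162 ± 7.10 CPM in input (log2 fold change 0.53 ± 0.06, edgeR adjusted p = 5.04e-05).

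Of 5 genes, namely myosins, Wasf1 and Cenpf, 4 fell and none rose, beside 20.9% lower and 24.5% higher among all tested genes. Cenpf was among those that fell, at low levels of 0.157 CPM in IP and 1.58 CPM in input. Myo6 had 17.3 ± 1.26 CPM in IP and 69.3 ± 3.35 CPM in input (log2 fold change -2.0 ± 0.09, edgeR adjusted p = 2.46e-08), and Myo5a fell by 0.44 ± 0.06 (adjusted p = 0.000133). Myo19, the myosin bound to Miro, was at -0.24 ± 0.51 (adjusted p = 0.731). Of 7 microtubule-binding genes 3 fell, Map2 by 0.92 ± 0.07 and Dclk1 by 0.75 ± 0.07 (edgeR adjusted p = 7.66e-07 and 8.55e-06), and none rose.

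**Figure D4:**
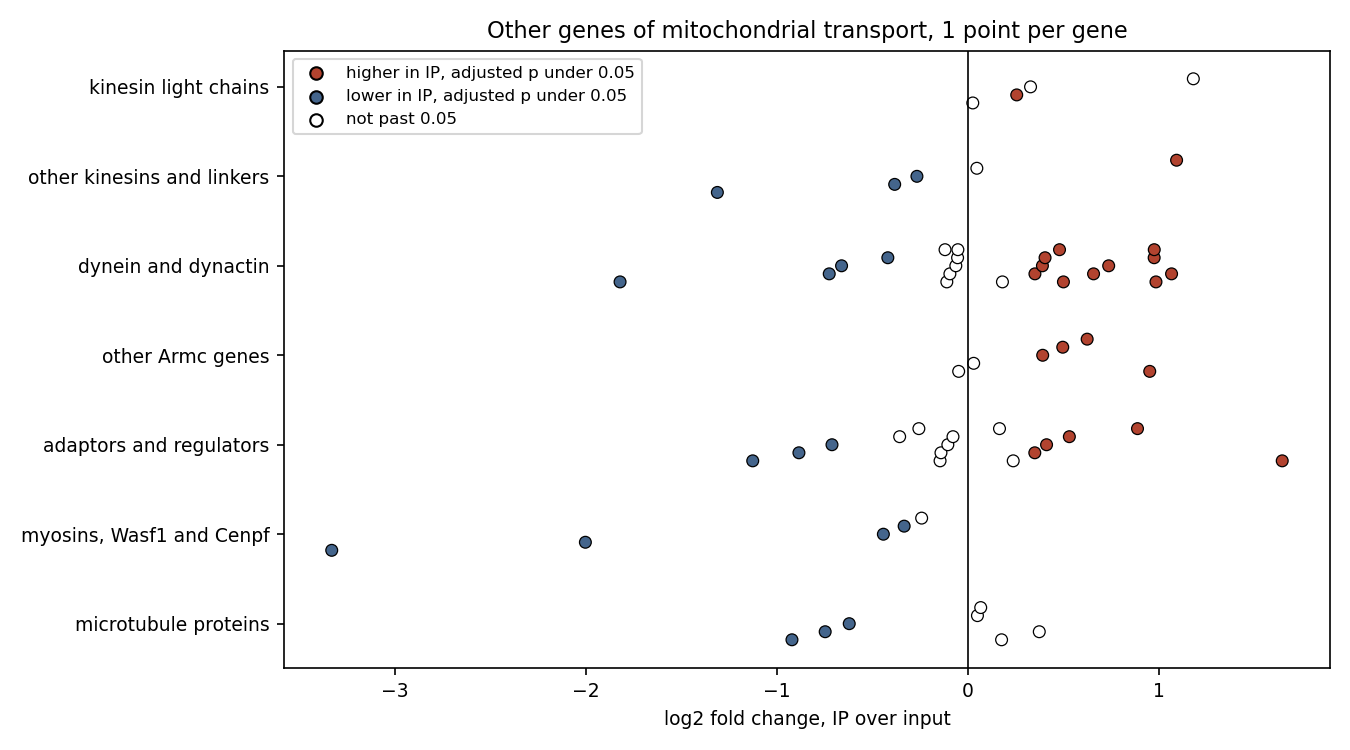
Log2 fold change of IP over input (horizontal axis) for the 65 tested genes of the wider list by group, 1 point per gene, with called and uncalled genes in different colours. Of the dynein and dynactin genes 11 were called higher and 4 lower, with a median of 0.27, and Myo6 lies at -2.0.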

How the data were processed

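Ribosome-bound (IP) and input RNA of arcuate tissue was sequenced in 4 libraries each, and groups and replicate numbers came from the sample titles. Each replicate is a pool of mice, so p-values measure the spread between pools. The main fit took IP and input libraries as unpaired, since the labels do not state that same-numbered ones share a pool. Estimated counts of each gene were deposited, made with Salmon 0.14.1 on GRCm38.p6 per the submitters' processing notes; the strand setting is not given in the sources used here. Salmon divides reads that match several genes by a model, so genes with shared sequence are uncertain. After rounding, edgeR 4.0.16 (R 4.3.3) was run on them (filterByExpr with a minimum count of 10, TMM factors, quasi-likelihood test), with Benjamini-Hochberg adjustment over 17000 genes and a threshold of 0.05. Intervals are 95%. Pipeline steps were tested on simulated data with few changed genes and no trend with length or GC content, unlike the data here. Alternatives were other scalings and filters, DESeq2 1.42.0, limma-voom 3.58.1, a replicate block, offsets for GC content and length of GENCODE M21 transcripts (natural splines with 5 degrees of freedom), and each library left out. The members and lists were chosen with earlier results of these data known. All members were named. From each group of the wider list came the 2 genes with the smallest p in each direction among those called, and Mtx1, Mtx2, Klc1, Klc2, Armc10 and Myo19 whatever their values. A gene that this rule names is not reported here.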

Additional observations from a re-analysis of the deposited data

Results flagged for a closer look

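In 36 groups of 4 libraries, 3 had a single library whose gap to its nearest neighbour exceeded Dixon's 95% critical share of the group's range; chance alone flags about 1 group in 20. For Snph, IP replicate 2 had 58.8 CPM, with 43.6 to 46.1 CPM in the other IP libraries. For Kif5c, input replicate 2 had 406 CPM, with 392 to 394 CPM in the other input libraries. For Armcx1, input replicate 2 had 46.6 CPM, with 40.4 to 41.2 CPM in the other input libraries.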

How the results depend on the processing

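Main counts were 0 members higher and 5 lower in IP, and 22 higher and 17 lower in the wider list. Of all tested genes, 24.5% were higher and 20.9% lower in the main fit. The shares of all tested genes under the other settings are not given here. Leaving out 1 library at a time gave 0 to 1 members higher, 5 to 7 lower, and 19 to 24 higher and 17 to 18 lower in the wider list. The 1 higher was Rhot2, without IP replicate 2 or IP replicate 3, and without IP replicate 2 Rhot1 and Armcx3 were also lower. Members called higher were 2 with library totals alone, which moved the median of all tested genes to 0.09. With Gm20683 added to Rhot2, 1 member was called higher. The Gm20683 sum, the offsets for ratios and GC and length offsets that were not centred were added after seeing the data. The uncentred offsets moved the median of all tested genes to 0.39. They gave 6 members higher and 1 lower, and 41 higher and 9 lower in the wider list. They reversed Rhot1 (0.26), Kif5b (0.25), Kif5c (0.19), Armcx3 (0.35), Kif1b (0.18), Myo19 (0.031) and Myo5a (0.12). Upper quartile factors, which moved the median of all genes to -0.15, reversed Trak1 (-0.045), Armcx1 (-0.0055) and Klc2 (-0.11). Klc2, near 0, was also reversed with RLE factors (-0.0087), DESeq2 (-0.0088), the offsets (-0.024) and the offsets with the replicate block (-0.026). With 1 library left out Klc2 ran between -0.023 and 0.085 and Myo19 between -0.61 and 0.086. The log2 difference of Kif5c over Kif5b was -0.059 with the offsets. Leaving out a library gave ratio differences of -0.82 to -0.23 for Rhot1 over Rhot2, 0.61 to 0.71 for Trak1 over Trak2, -0.44 to -0.34 for Kif5a over Kif5b, 0.05 to 0.07 for Kif5c over Kif5b, -0.48 to -0.40 for Kif5a over Kif5c and 0.20 to 0.39 for Armcx1 over Armcx3. The cause of these shifts was not tested. Same-numbered IP and input libraries correlated at 0.048 to 0.084 in their deviations, and libraries of differing numbers at -0.038 to -0.0016. The former were under 0.1, so the numbers were not taken as pairs. Still, each IP library correlated best with its own number, and whether they share a pool was not settled. With the replicate block 5 members were lower and 0 higher. Its sign-flip test of the ratios cannot go below 0.125 (adjusted p = 0.15, and 0.25 for Rhot1 over Rhot2).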

Other observations

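Neurofilament genes, whose proteins fill large axons, were lower in IP beyond the spread between libraries. Nefl had 73.9 ± 4.66 CPM in IP and 264 ± 15.4 CPM in input (SD, n = 4 each), and its log2 fold change was -1.84 ± 0.07 (SE). Nefm had 42.9 ± 3.62 CPM in IP and 125.2 ± 15.3 CPM in input, and Nefh 29.4 ± 2.84 CPM in IP and 49.0 ± 5.06 CPM in input. Elavl4, a neuronal RNA-binding protein gene, was higher, with 167 ± 5.71 CPM in IP and 88.7 ± 5.44 CPM in input. These genes were picked from the pan-neuronal list after their values were seen.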
